A study of Mus musculus with 16 samples.

Results

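The 10 genes described here are markers and working genes of amacrine and horizontal cells, the inhibitory interneurons of the retina: Gad1, Gad2, Slc32a1, Slc6a9, Calb1, Calb2, Chat, Th, Tfap2a and Onecut1. They were chosen by gene symbol from the platform annotation, in which each has 1 transcript cluster with a single symbol, and they are 10 of 19938 genes measured. RNA came from 8 male Balb/cJ mice, an albino strain, aged 10 weeks, and 2 tissues were taken from each: the isolated retinal pigment epithelium (RPE) and the neurosensory retina (NSR). The 4 groups, each of 4 mice with 1 array a mouse and tissue, were light-exposed RPE, control RPE, light-exposed NSR and control NSR. Light-exposed mice had spent 18 hours under cool white fluorescent light of 10000 lux and were killed 4 hours after it ended, while control mice had been kept on a 12-hour light-dark cycle. The effect of the light itself and that of the longer lit period cannot be told apart.

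Amacrine cells sit in the inner retina and shape the signals that bipolar cells pass to ganglion cells, and horizontal cells sit in the outer retina and feed back onto photoreceptor terminals. Amacrine cells release GABA or glycine, and smaller classes add acetylcholine or dopamine. In bright light damage of albino rodents the photoreceptors are the cells that are mainly lost, and amacrine cells have no direct contact with them. In whole tissue a lower value can mean fewer cells of a type or less mRNA per cell, and these cannot be told apart.

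All values are deposited log2 expression values of 16 one-colour arrays, which carry no detection measure, so how far a gene stood above background is unknown. Array medians lay between 6.38 and 6.57, and arrays correlated with their own group at 0.987 to 0.991 on average. The number of arrays limits the precision. A gene is named as dim in a group where its mean was below 5.63. That limit is the 25% quantile of gene means over all 16 arrays. The tissue labels fitted their markers: the median of 11 RPE genes lay between 11.68 and 12.37 on RPE arrays and between 5.56 and 5.95 on NSR arrays. The median of 10 rod genes lay between 7.32 and 8.60 on RPE arrays, against 11.25 to 12.10 on NSR arrays. Some RPE arrays had higher marker medians of neighbouring tissue than the rest of their group, and the source of these values was not tested. Among light-exposed RPE, array 1 had a rod median of 8.60 where arrays 2 to 4 had 7.32 to 7.61. Array 2 of that group had a corneal and conjunctival median of 8.02 where the rest had 6.14 to 6.16. In control RPE, arrays 1 and 2 had rod medians of 8.38 and 8.32 where arrays 3 and 4 had 7.82 and 7.83, and array 2 had a lens median of 7.17 where the rest had 6.29 to 6.44. A gene was called where the limma adjusted p over all genes was under 0.05.

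The 250 bases before the annotated starts of 4 genes, Gad1, Gad2, Slc32a1 and Slc6a9, are shown first. Gad1, Gad2 and Slc32a1 serve the making of GABA and its loading into vesicles, and were lower together in RPE than in NSR. Slc6a9 was higher in RPE, and light lowered it there. The sequences are those of RefSeq on GRCm38.p6, whose promoter table held 8 of the 10 genes with 11 starts in all. Each is written 5′ to 3′ on the strand of the gene, all 6 of them the plus strand, with capitals for matches to 3 motifs searched on both strands. The motifs were GCCNNNGGC for AP-2 factors, the family of Tfap2a, ATCAAT for Onecut factors, the family of Onecut1, and TGACGTCA, the cAMP response element. No matches of different motifs overlapped.
Gad1 (chr2:70561879-70562128, plus strand): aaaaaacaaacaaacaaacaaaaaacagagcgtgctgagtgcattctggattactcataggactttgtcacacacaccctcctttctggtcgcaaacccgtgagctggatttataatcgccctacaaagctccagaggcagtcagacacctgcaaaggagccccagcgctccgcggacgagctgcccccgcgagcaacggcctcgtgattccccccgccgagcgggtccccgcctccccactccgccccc
Gad2 (chr2:22622077-22622326, plus strand): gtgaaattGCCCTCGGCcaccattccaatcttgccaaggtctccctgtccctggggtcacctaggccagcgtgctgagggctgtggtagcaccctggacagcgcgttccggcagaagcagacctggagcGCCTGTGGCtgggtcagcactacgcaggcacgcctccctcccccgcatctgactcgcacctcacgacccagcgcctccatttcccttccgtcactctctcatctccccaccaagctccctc
Slc32a1 (chr2:158610508-158610757, plus strand): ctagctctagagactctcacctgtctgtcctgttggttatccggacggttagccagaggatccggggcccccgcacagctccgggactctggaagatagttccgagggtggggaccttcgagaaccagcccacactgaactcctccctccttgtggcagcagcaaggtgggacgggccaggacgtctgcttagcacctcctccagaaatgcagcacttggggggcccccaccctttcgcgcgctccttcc
Slc6a9, start 1 (chr4:117835008-117835257, plus strand): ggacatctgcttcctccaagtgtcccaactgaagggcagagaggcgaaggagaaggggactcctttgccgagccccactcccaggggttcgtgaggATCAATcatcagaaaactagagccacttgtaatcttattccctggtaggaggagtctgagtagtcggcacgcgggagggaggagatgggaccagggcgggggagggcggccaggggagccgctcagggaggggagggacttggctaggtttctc
Slc6a9, start 2 (chr4:117849100-117849349, plus strand): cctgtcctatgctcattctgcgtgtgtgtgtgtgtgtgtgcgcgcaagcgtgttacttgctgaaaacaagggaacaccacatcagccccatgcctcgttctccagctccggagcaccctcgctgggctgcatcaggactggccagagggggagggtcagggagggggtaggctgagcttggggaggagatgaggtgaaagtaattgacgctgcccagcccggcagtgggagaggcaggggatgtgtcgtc
Slc6a9, start 3 (chr4:117855297-117855546, plus strand): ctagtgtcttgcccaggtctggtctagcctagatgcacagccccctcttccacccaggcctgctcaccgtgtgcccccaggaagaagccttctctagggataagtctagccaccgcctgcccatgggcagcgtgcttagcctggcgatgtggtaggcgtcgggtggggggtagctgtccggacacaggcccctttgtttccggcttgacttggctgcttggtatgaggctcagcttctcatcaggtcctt
The Gad2 window held 2 AP-2 matches, beginning 242 and 121 bases before the start, and the window of Slc6a9 start 1 held 1 Onecut match, 154 bases before it. No match stood in the other 4 windows shown. Among 32851 promoter windows of this length, 13.7% held the AP-2 motif, 6.72% the Onecut motif and 1.55% the cAMP response element. Of the other genes in the table, Th held 1 cAMP response element, 45 bases before its start. Slc6a9 has 3 annotated starts, and its transcript cluster on the array gives 1 value that does not tell them apart.

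The comparison of RPE with NSR asked in which tissue the genes were found. In light-exposed mice 6 of the 10 genes were lower and 1 higher in RPE, with 58.0% of all genes called in this comparison, 23.6% as lower and 34.4% as higher. Arrays of the tissues did not overlap for 6 of the 10, against 51.9% of all genes. In control mice 8 were lower and 1 higher, with 55.0% of all genes called, 24.2% as lower and 30.8% as higher, and 8 did not overlap, against 52.2%. The median log2 difference, RPE minus NSR, was -2.02 in light-exposed mice and -1.94 in control mice, where the median over all genes was 0.08 and 0.04. Calb1, Calb2, Gad1, Gad2, Slc32a1 and Tfap2a were at least 3.55-fold lower in RPE in both sets of mice, and Slc6a9 ran the other way. A change of at least 2-fold, which these 6 genes had, was called for 15.3% of all genes in light-exposed mice and 16.4% in control mice. Chat, Th and Onecut1 differed by at most 1.33-fold, so that 6 of the 10 genes set the tissues widely apart. Of 18 further transcription factors known from amacrine cells, 15 were lower and 2 higher in RPE of light-exposed mice, and 14 and 1 in control mice. Pax6, which is on that list, lay between 6.08 and 7.30 on RPE arrays and between 9.82 and 10.19 on NSR arrays. That list is 1 of 6 lists of related genes described below, which did not all run lower in RPE. Of their 78 genes 50 were lower and 19 higher in light-exposed mice, and 43 and 19 in control mice. Of 9 genes of GABA and glycine handling 5 were higher and 3 lower in both sets of mice. Of 13 dopaminergic genes 8 were higher and 4 lower in light-exposed mice, and 7 and 4 in control mice.

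**Figure D1:**
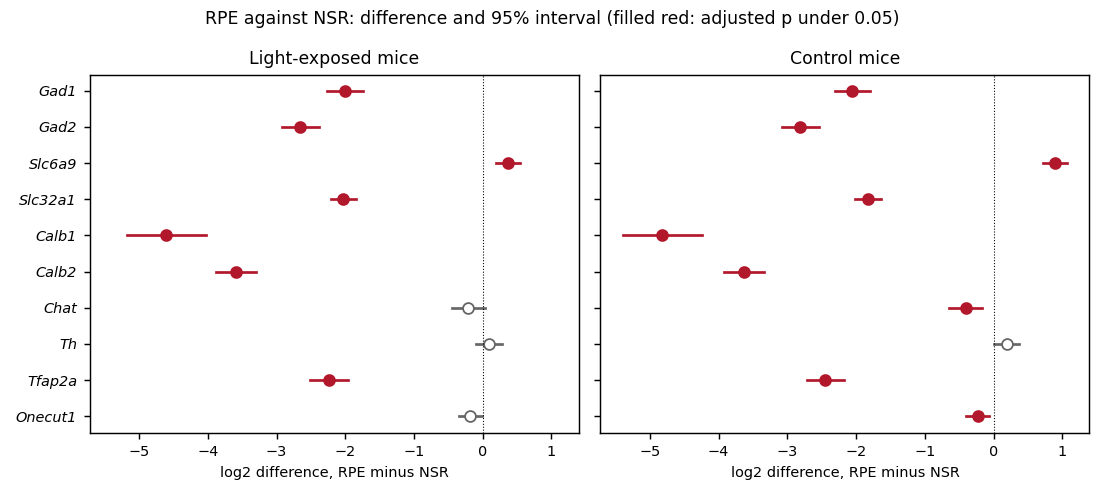
Log2 difference of RPE minus NSR for the 10 genes in light-exposed and control mice (4 mice each), as points with 95% intervals, red and filled where the limma adjusted p was under 0.05. In both panels 6 genes lie left of -1.8, with Calb1 farthest at -4.60 and -4.82, and Slc6a9 lies right of 0 at 0.37 and 0.89.

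Light changed few of the 10 genes. In the RPE 1 of 10 was called, Slc6a9, which fell, where 17.6% of all genes were called, 8.53% as lower. In the NSR 1 of 10 was called, Calb1, which fell, where 15.1% of all genes were called, 6.24% as lower. In each tissue the light-exposed arrays lay wholly outside the control arrays for 1 of the 10, against 22.1% of all genes in the RPE and 20.7% in the NSR. The median log2 change was 0.02 in the RPE and 0.03 in the NSR, beside -0.01 and -0.02 over all genes. The shares called are near or below the background, and none of the 10 changed by 2-fold in either tissue, where 1.48% of all genes in the RPE and 1.35% in the NSR were called with at least that change. For the 9 genes without a call in the NSR, 95% intervals reached from -0.36 to 0.40, so that larger changes lay outside each of them. In the RPE most intervals were wider, and that of Calb1 ran from -0.94 to 0.63, while those of Chat and Th were narrower than in the NSR.

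**Figure D2:**
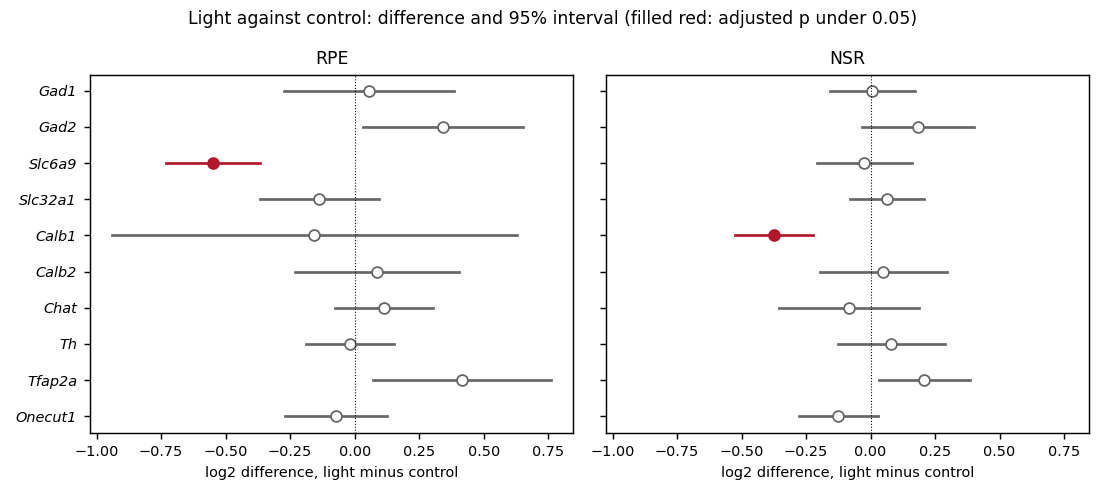
Log2 difference of light minus control for the 10 genes in RPE and NSR (4 mice a group), as points with 95% intervals, red and filled where the limma adjusted p was under 0.05. Slc6a9 in the RPE (-0.55) and Calb1 in the NSR (-0.38) are the 2 called changes.

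Gad1 and Gad2 encode the glutamate decarboxylases GAD67 and GAD65, which make GABA, and Slc32a1 encodes the transporter that loads GABA and glycine into synaptic vesicles. In the NSR none of the 3 passed the test for light. Gad1 stood at 8.38, 8.21, 8.40 and 8.21 in light-exposed NSR, against 8.24, 8.44, 8.24 and 8.24 in control NSR. The groups overlapped, and the log2 difference was 0.01 (95% interval -0.16 to 0.17, limma adjusted p = 0.964). Slc32a1 stood at 8.75, 8.58, 8.72 and 8.66 in light-exposed NSR, against 8.69, 8.53, 8.62 and 8.61 in control NSR, a difference of 0.06 (95% interval -0.08 to 0.21, adjusted p = 0.57). Its SD of 0.08 and 0.06 among the 4 light-exposed and 4 control mice was among the smallest of the genes. Gad2 stood at 8.71, 8.36, 8.57 and 8.42 in light-exposed NSR and at 8.39, 8.54, 8.18 and 8.21 in control NSR, a difference of 0.18 with SE 0.10 that did not pass (adjusted p = 0.255).

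On RPE arrays too, none of the 3 passed the test for light. Gad2 stood at 6.17, 5.71, 5.73 and 5.84 in light-exposed RPE, against 5.84, 5.29, 5.34 and 5.61 in control RPE, where its mean was dim. The groups overlapped, and the difference of 0.34 (SE 0.14) did not pass (adjusted p = 0.137). RPE light 1, the highest of the 8 for Gad2, was also the highest in rod genes, and the difference was 0.24 without it (adjusted p = 0.287) and 0.45 without RPE control 1 (adjusted p = 0.049), the control array with the highest rod median. Gad1 averaged 6.29 ± 0.22 in light-exposed RPE and 6.24 ± 0.28 in control RPE (SD, n = 4 each), with an adjusted p of 0.872 in limma. Its highest RPE array was RPE light 3 (6.52), the array with the lowest rod median. Slc32a1 averaged 6.65 ± 0.22 in light-exposed RPE and 6.79 ± 0.07 in control RPE (SD, n = 4 each), a difference of -0.14 with a limma adjusted p of 0.457.

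Between the tissues Gad1, Gad2 and Slc32a1 differed by more than any spread among mice. Gad1 was 4.02-fold lower in RPE than in NSR of light-exposed mice and 4.15-fold lower in control mice (log2 -2.01 and -2.05, SE 0.12, limma adjusted p = 1.33e-10 and 7.95e-11). Gad2 was 6.29-fold and 7.03-fold lower, and Slc32a1 4.08-fold and 3.55-fold lower. All 8 RPE arrays lay below all 8 NSR arrays for each of the 3. The light response of RPE did not differ from that of NSR by the test for any of them, with limma adjusted p between 0.346 and 0.907.

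**Figure D3:**
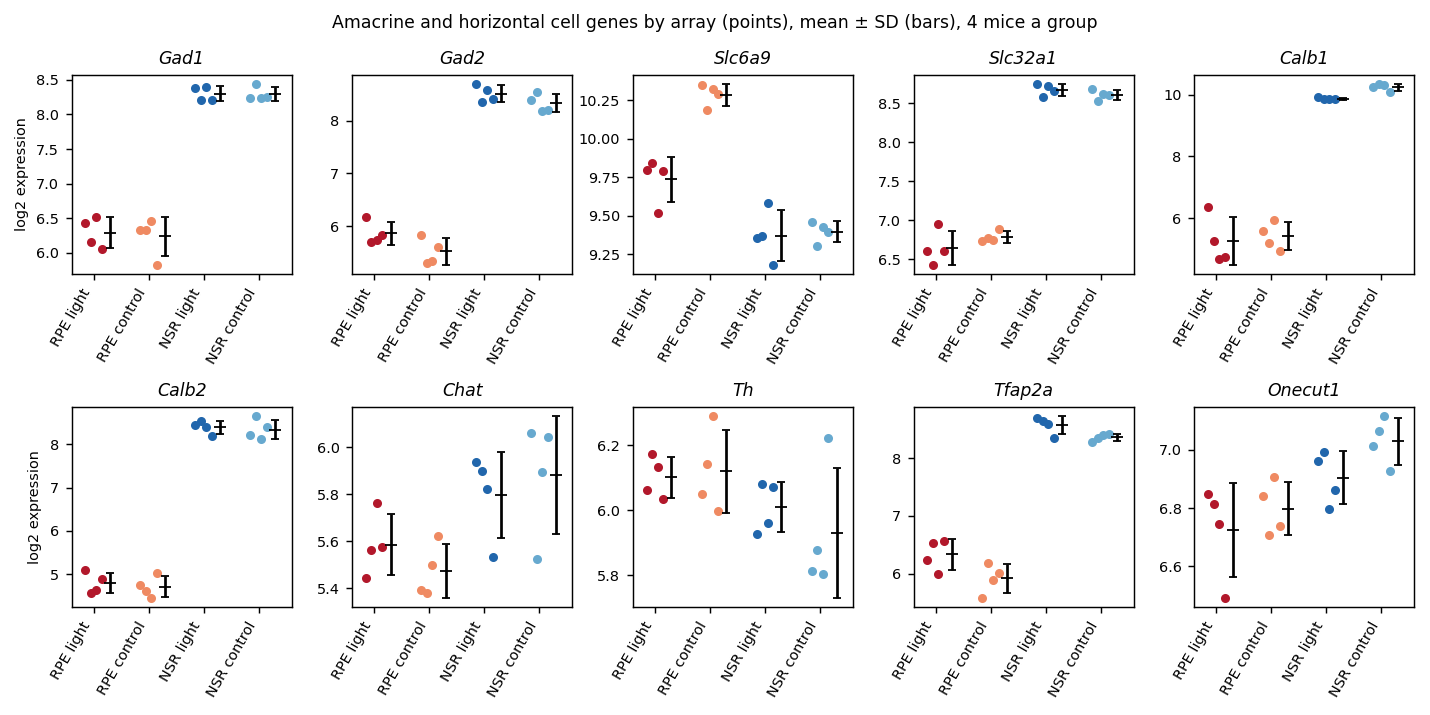
Log2 expression of the 10 genes on each array (points) by group, with the mean and SD of 4 mice beside them. Axes differ between genes. For 6 genes, NSR arrays stand well above RPE arrays, Slc6a9 is highest in control RPE, and Chat, Th and Onecut1 span less than 1 log2 unit over all 16 arrays.

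Slc6a9 encodes GlyT1, the glycine transporter by which glycinergic amacrine cells take glycine back up. Here it was higher in RPE than in NSR, it fell with light in RPE, and its light response differed between the tissues. It stood at 9.80, 9.84, 9.52 and 9.79 in light-exposed RPE, against 10.35, 10.19, 10.32 and 10.29 in control RPE. Every light-exposed array lay below every control array, and the fall was 1.46-fold (log2 -0.55, SE 0.08, limma adjusted p = 0.00127). With RPE light 1 and 2 and RPE control 2 left out, the log2 difference was -0.66 (adjusted p = 0.0108). Genes of the RPE itself fell beside it, 7 of 11 with a median of -0.36, and 7 of 9 melanocyte genes, against 8.53% of all genes. Tyrp1, Dct and Mlana are on both lists. The part of these genes in the value of Slc6a9 was not tested. In the NSR it stood at 9.35, 9.37, 9.58 and 9.18 in light-exposed mice, against 9.46, 9.30, 9.43 and 9.39 in control mice, a difference of -0.02 (95% interval -0.21 to 0.16, adjusted p = 0.881). The light response of RPE minus that of NSR was -0.52 (SE 0.12, adjusted p = 0.00619), and Slc6a9 was the only 1 of the 10 genes called in this test, where 13.2% of all genes were called, 8.05% as lower, 5.16% as higher and 2.17% with a difference of at least 2-fold. RPE exceeded NSR 1.29-fold in light-exposed mice, where the arrays overlapped (adjusted p = 0.00115), and 1.86-fold in control mice, where they did not (adjusted p = 4.63e-08). The call in light-exposed mice was lost with quantile normalization (adjusted p = 0.0504). The level in RPE was well above the dim range, and as a mark of amacrine cells Slc6a9 went against its label in these tissues.

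Calb1 and Calb2 encode the calcium-binding proteins calbindin and calretinin. Calbindin marks horizontal cells and some amacrine cells of the mouse, and calretinin marks amacrine cells, starburst cells among them, and ganglion cells. Calb1 stood at 9.91, 9.87, 9.84 and 9.84 in light-exposed NSR, against 10.25, 10.34, 10.30 and 10.08 in control NSR. All light-exposed arrays lay below all control arrays, and the light-exposed ones lay within 0.07 of each other. The fall was 1.30-fold (log2 -0.38, SE 0.07, limma adjusted p = 0.00301), and in a fit of all 16 arrays, whose spread includes the wider RPE values of Calb1, the call was lost (adjusted p = 0.417, against 0.000222 to 0.0122 in the other refits). Calb2 stood at 8.45, 8.53, 8.39 and 8.18 in light-exposed NSR, against 8.21, 8.64, 8.13 and 8.39 in control NSR, with overlapping groups and a difference of 0.05 (95% interval -0.20 to 0.30, adjusted p = 0.82).

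Most markers of photoreceptors, bipolar cells and Müller glia fell in the NSR beside Calb1, where 6.24% of all genes were called lower. Of 10 rod genes 10 fell, of 9 cone genes 7 fell, and of 11 bipolar genes 6 fell and 1 rose, with median log2 changes of -0.50, -1.05 and -0.26. Of 10 genes of Müller glia 6 fell and 2 rose, with a median of -0.43. Of 12 further horizontal cell genes 3 fell and 1 rose, with a median of -0.12. Of 11 ganglion cell genes 1 rose and none fell, with a median of 0.02 and a share called of 9.09%, below the 15.1% of all genes. The part of these groups in the value of Calb1 was not tested. The array value pools all cells that hold Calb1 mRNA.

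In the RPE both calcium-binding genes were dim. Calb1 stood at 6.36, 5.25, 4.70 and 4.75 in light-exposed RPE, against 5.60, 5.21, 5.95 and 4.92 in control RPE, the widest spread of the 10 genes. RPE light 1, its highest array, was the highest in rod genes too, and the log2 difference between light and control was -0.16 with it and -0.52 without it (limma adjusted p = 0.841 and 0.192). Without RPE light 1 and 2 and RPE control 2 it was -0.77 (adjusted p = 0.126), a fit that keeps RPE control 1. Calb2 lay between 4.57 and 5.09 in light-exposed RPE and between 4.46 and 5.03 in control RPE. Against NSR, Calb1 was 24.3-fold lower in light-exposed RPE and 28.3-fold lower in control RPE, and Calb2 12.1-fold and 12.4-fold lower (limma adjusted p of at most 8.32e-11 for each). Both means in RPE were dim, and the sizes of these folds are uncertain.

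**Figure D4:**
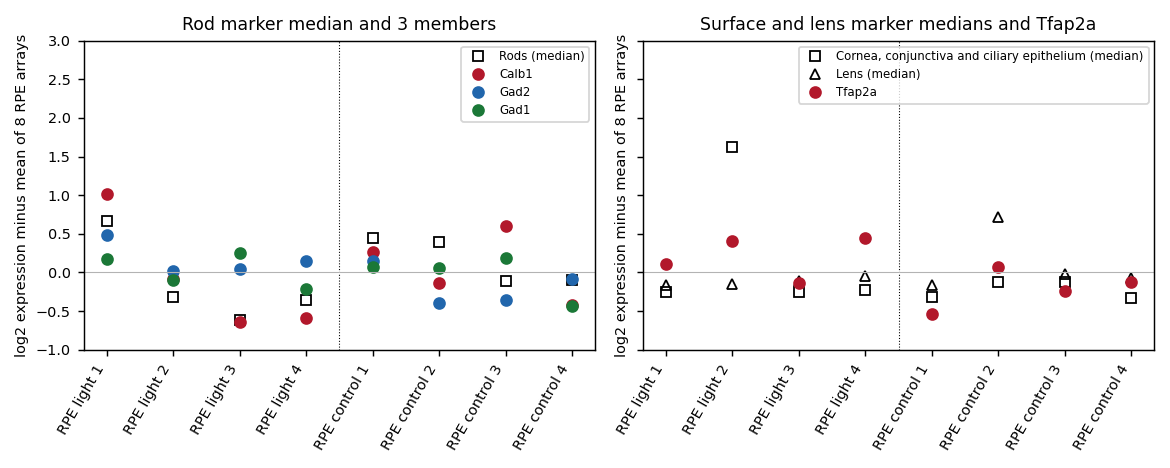
Log2 expression on the 8 RPE arrays, each as its difference from the mean of the 8, for Calb1, Gad2, Gad1 and the rod marker median (left) and for Tfap2a and the corneal and lens marker medians (right). RPE light 1 is highest for rod genes, Calb1 and Gad2. RPE light 2 stands out in corneal genes, while Tfap2a is as high in RPE light 4 as there.

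Chat, choline acetyltransferase, makes acetylcholine and marks starburst amacrine cells, and Th, tyrosine hydroxylase, is the first enzyme of dopamine synthesis and marks the few dopaminergic amacrine cells. Both had low values in every group. Chat stood at 5.94, 5.90, 5.82 and 5.53 in light-exposed NSR and at 6.06, 5.53, 5.90 and 6.04 in control NSR. In RPE it averaged 5.59 ± 0.13 in light-exposed and 5.47 ± 0.11 in control mice (SD, n = 4 each), both dim. It was 1.16-fold lower in RPE than in NSR of light-exposed mice, which did not pass (limma adjusted p = 0.128), and 1.33-fold lower in control mice, which did (adjusted p = 0.0056), with overlapping arrays in both. Chat thus lay lower in RPE in control mice by less than the range of its NSR arrays. Th stood at 5.93, 6.08, 5.96 and 6.07 in light-exposed NSR, against 5.81, 5.88, 5.80 and 6.22 in control NSR. Its mean was 6.10 ± 0.06 in light-exposed RPE and 6.12 ± 0.13 in control RPE (SD, n = 4 each).

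Th therefore had no higher value in NSR, where its cells are, than in RPE. The RPE minus NSR difference was 0.09 in light-exposed mice (adjusted p = 0.399) and 0.19 in control mice (adjusted p = 0.0804). Centring each array on its median gave 0.22 and 0.33 and called both (limma adjusted p = 0.0419 and 0.00419). Quantile normalization did not call Th in light-exposed mice and called it in control mice (0.22, adjusted p = 0.047), with the median of all genes there at 0.02. The centring moved the median of all genes to 0.20 in light-exposed and 0.19 in control mice, and the share of called genes that were higher in RPE to 73.0% and 72.2%, against 59.3% and 56.0% without it. Light moved neither gene past the test in either tissue, with adjusted p between 0.465 and 0.918.

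Tfap2a encodes AP-2 alpha, a transcription factor of amacrine cells in the mouse that is also known from surface epithelium and neural crest. It stood at 8.70, 8.65, 8.59 and 8.35 in light-exposed NSR, against 8.28, 8.35, 8.40 and 8.43 in control NSR. NSR light 4 lay within the control range and the other light-exposed arrays above it. The difference of 0.21 (SE 0.08, 95% interval 0.03 to 0.39) did not pass over all genes (limma adjusted p = 0.113), and it was 0.28 without NSR light 4 (adjusted p = 0.019). In RPE it stood at 6.24, 6.53, 5.99 and 6.57 in light-exposed mice, against 5.58, 6.19, 5.89 and 6.0 in control mice, overlapping, with a difference of 0.42 (SE 0.15, adjusted p = 0.102).

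Corneal and conjunctival genes were high in RPE light 2 alone, where the keratin gene Krt12 stood at 10.95, while arrays 1, 3 and 4 of that group had 6.65 to 6.86 and control RPE 6.71 to 7.05. Without RPE light 2 the difference of Tfap2a was 0.35 (adjusted p = 0.226), and without RPE light 3 it was 0.53 (adjusted p = 0.0391). A fit of all 16 arrays called the 0.42 (adjusted p = 0.0296). Between the tissues Tfap2a was 4.72-fold lower in RPE of light-exposed mice and 5.45-fold lower in control mice (log2 -2.24 and -2.45, SE 0.13).

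Onecut1 encodes a transcription factor that horizontal cells need to form and that they keep. It stood at 6.96, 6.99, 6.80 and 6.86 in light-exposed NSR, against 7.01, 7.06, 7.12 and 6.93 in control NSR. The groups overlapped, and the difference of -0.13 (SE 0.07) did not pass (limma adjusted p = 0.273). In RPE it averaged 6.72 ± 0.16 in light-exposed and 6.80 ± 0.09 in control mice (SD, n = 4 each). It was 1.13-fold lower in RPE than in NSR of light-exposed mice (adjusted p = 0.0637, and 0.0475 with the mouse as a block) and 1.17-fold lower in control mice (adjusted p = 0.0199). In light-exposed mice 6 of 17 refits called it, among them array weights (adjusted p = 0.0419) and the fit without RPE light 1 and 2 (log2 -0.29, adjusted p = 0.0151). The call in control mice was lost with arrays centred on their median (log2 -0.09, adjusted p = 0.349). It was also lost without NSR control 3 (adjusted p = 0.0613), RPE control 2 (0.0619) or RPE control 4 (0.0523).

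The genes with the profile most like each of the 10 were found by Pearson correlation over the 16 arrays, a description that mainly reflects the 2 tissues. Calb1 came closest to Cacna2d4 (r = 0.997), Gad1 to Slc12a5 (r = 0.996), Gad2 to Pclo (r = 0.995) and Calb2 to Kcnma1 (r = 0.996). Slc32a1 came closest to Srsf1 (r = 0.995), Tfap2a to Nrcam (r = 0.993) and Slc6a9 to Zfp385b (r = 0.984). For Chat, Onecut1 and Th the best matches reached r = 0.883, 0.882 and 0.817, with Prrt1, Kncn and Ints9.

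Related genes, on 6 lists with 78 measured genes, were set beside the members. Some are also known from other cells, and not all were lower in RPE than in NSR. In the RPE 3 of the 78 rose and 11 fell with light, and in the NSR 16 rose and 5 fell. Of all genes 9.08% were called higher and 8.53% lower in the RPE, and 8.87% and 6.24% in the NSR. The median log2 change of the 78 was -0.06 in the RPE and 0.06 in the NSR. The balance over all genes in the NSR moved with the scaling: 58.7% of called genes were higher with light as deposited, 67.3% with arrays centred on their median and 49.5% with quantile normalization. The lists were chosen with earlier results on these samples known.

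Of 19 peptide and synaptic genes of amacrine cells 6 rose and none fell in the NSR, with a median of 0.18. That is 31.6% of the list, against 15.1% of all genes called in the NSR. Genes of reactive glia rose there too, 10 of 10 with a median of 2.04, and their part was not tested. Penk, the precursor of enkephalins, averaged 9.41 in light-exposed NSR and 7.63 in control NSR and rose 3.43-fold (limma adjusted p = 1.79e-06). Tac1, the precursor of substance P, rose 1.67-fold (adjusted p = 0.000358). In the RPE 2 of the 19 fell and none rose, 10.5% of the list against 17.6% of all genes. Dab1, an adaptor of reelin signalling, was 2.05-fold lower there and Nos1, the neuronal nitric oxide synthase, 1.32-fold lower. Of 18 amacrine transcription factors 3 rose and none fell in the NSR, 16.7% of the list and near the background, with Sox2 up 1.61-fold and Neurod1 up 1.37-fold, and in the RPE limma called none of the 18, also at an unadjusted p under 0.05. Sox2 is also known from Müller glia and Neurod1 from photoreceptors.

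Of 9 genes of GABA and glycine handling 1 rose and 4 fell in the RPE, 55.6% of the list, and 2 rose and 2 fell in the NSR, 44.4%. Of all genes 17.6% were called in the RPE, 8.53% as lower, and 15.1% in the NSR, 6.24% as lower. Glul, glutamine synthetase of Müller glia, was 1.84-fold lower in light-exposed NSR (limma adjusted p = 5.28e-06), where 6 of 10 genes of Müller glia fell and 2 rose. Slc6a5, the neuronal glycine transporter GlyT2, rose 1.37-fold in the NSR (adjusted p = 0.0358). In the RPE Slc6a13, the GABA transporter GAT2, averaged 9.99 in light-exposed and 11.39 in control mice and fell 2.64-fold (adjusted p = 6.09e-05). Abat, the GABA transaminase that breaks GABA down, averaged 10.60 and 11.48 in the same groups and fell 1.83-fold (adjusted p = 0.000103). Both stood higher in RPE than in NSR, Slc6a13 by 14.3-fold in light-exposed and 34.4-fold in control mice and Abat by 2.68-fold and 4.63-fold. They shared with Slc6a9 a higher level in RPE and a fall there with light, whereas Gad1, Gad2 and Slc32a1 were low in RPE. Of 11 RPE marker genes 7 fell beside them, with a median of -0.36, and of 9 melanocyte genes 7 fell, with a median of -0.62. The lists share Tyrp1, Dct and Mlana, so they are not separate sets of genes. The part of these genes in the values of Slc6a9, Slc6a13 and Abat was not tested.

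Of 8 cholinergic genes 1 rose in the RPE and 2 in the NSR, and none fell. The share called was 12.5% in the RPE, below the 17.6% of all genes, and 25% in the NSR, against 15.1%. Ache, the acetylcholine esterase, rose in both tissues, 4.56-fold in the RPE and 1.35-fold in the NSR (limma adjusted p = 2.4e-05 and 0.0178). Rnd3, a small GTPase, rose 2.15-fold in the NSR (adjusted p = 2.82e-05). Of 13 dopaminergic genes 1 rose and 2 fell in the RPE, 23.1% against 17.6% of all genes. In the NSR 2 rose and none fell, and the 15.4% called is level with the 15.1% of all genes. Ddc, which turns L-DOPA into dopamine, averaged 6.52 in light-exposed and 8.04 in control RPE and fell 2.87-fold (adjusted p = 0.000103). Gch1, the first enzyme of tetrahydrobiopterin synthesis, averaged 6.08 in light-exposed and 4.76 in control NSR, which is dim, and rose 2.50-fold (adjusted p = 0.00349). Maoa, a monoamine oxidase that breaks down dopamine, rose 1.64-fold there (adjusted p = 0.00191), and Drd2, a dopamine receptor, rose 1.52-fold in the RPE (adjusted p = 0.00297).

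Of 12 further horizontal cell genes 3 fell and none rose in the RPE, 25% of the list against 17.6% of all genes. In the NSR 1 rose and 3 fell, 33.3% against 15.1%. Septin4 was lower in both tissues, 2.95-fold in the RPE and 1.38-fold in the NSR (limma adjusted p = 9.79e-06 and 0.000591). Onecut3, a relative of Onecut1, was 1.24-fold lower in light-exposed NSR (adjusted p = 0.0132). Septin4 averaged 10.22 in control RPE and 9.78 in control NSR, so that its level was not tied to the tissue that holds horizontal cells. The median over the 12 genes was -0.12 in each tissue, beside -0.38 for Calb1 and -0.13 for Onecut1 in the NSR.

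**Figure D5:**
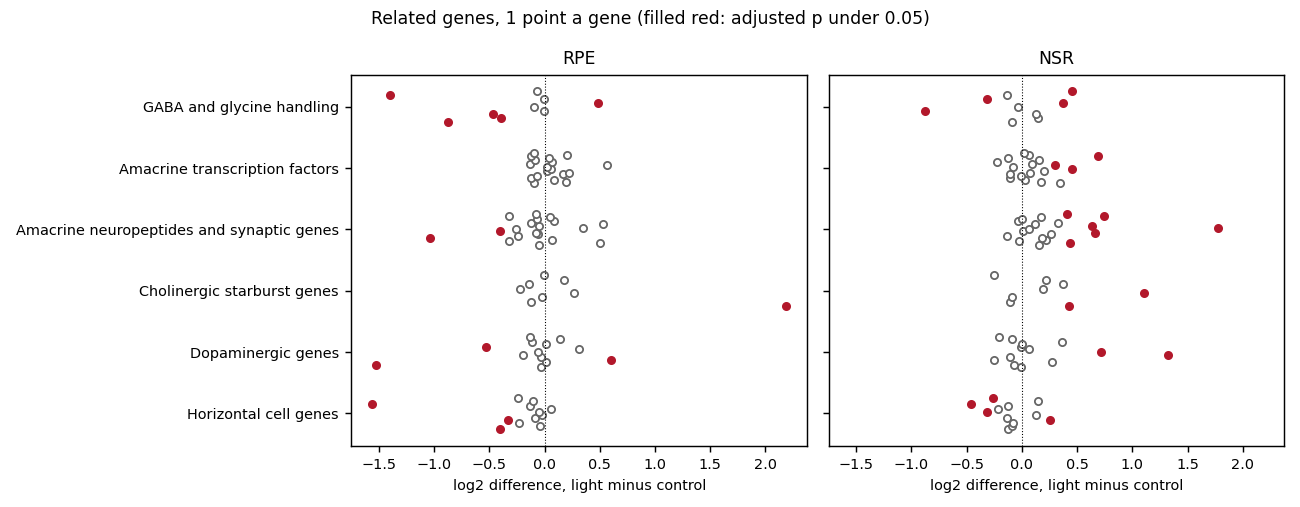
Log2 difference of light minus control in RPE and NSR for 78 related genes in 6 lists, 1 point a gene and list, red and filled where the limma adjusted p was under 0.05. Called amacrine peptide genes lie right of 0 in the NSR, with Penk at 1.78, and called genes of GABA and glycine handling lie mostly left of 0 in the RPE, with Slc6a13 at -1.40.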

How the data were processed

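The RNA of each RPE and NSR sample was measured on an Affymetrix Mouse Gene 1.0 ST array, 16 in all. The labels' protocols name the RNeasy Mini kit for extraction, the Ovation Pico WTA system for amplification and a biotin label. The authors deposited log2 expression values of 35556 transcript clusters. The submitters' processing notes name RMA and Partek 6.6. The log2 scale was read from the values (2.20 to 13.84), and the sources used here do not give the annotation version, probe filters or centring. Symbols came from the platform annotation, with 21789 clusters of 1 symbol, 1621 of several and 12146 of none. Each gene took its brightest single-symbol cluster.

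R 4.3.3 with limma 3.58.1 fitted light against control within each tissue on 8 arrays. The tissue comparisons and the difference of light responses were fitted on all 16 arrays as 4 group means. Adjusted p-values are Benjamini-Hochberg over 19938 genes. Tables and figures were made in Python 3.11.15 with pandas 2.3.3. The fits were tested on simulated data. RPE and NSR with the same label number come from the same mouse, and their deviations from group means correlated between -0.011 and 0.053. Arrays that share only the number correlated between -0.017 and 0.066, so these values do not set the pairs of a mouse apart. None of the 120 pairs of arrays was identical. Alternatives covered scaling, filters, priors, weights, blocks, the arrays of the fit and each array left out. The 10 genes, the related and marker lists and the alternatives were chosen with earlier results of these data known. All 10 genes are named, and of each related list at most the 2 called genes with the largest light change in each tissue. Pax6 and Krt12 were added after their values were seen.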

Additional observations from a re-analysis of the deposited data

Results flagged for a closer look

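Among the 40 sets of 4 arrays formed by the 10 genes and 4 groups, 2 held an array that stood apart by Dixon's ratio, where chance gives about 1 in 20 sets, or 2. Slc6a9 stood at 9.52 in RPE light 3, where the remaining arrays of that group had 9.79 to 9.84, and without that array the log2 difference between light and control was -0.48 (limma adjusted p = 0.00157). Gad1 stood at 8.44 in NSR control 2 and at 8.24 in each of the other control NSR arrays.

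The light response of Slc6a9 differed between the tissues by the interaction test, at -0.52 on the log2 scale for RPE minus NSR (SE 0.12, limma adjusted p = 0.00619). It kept its call in the 24 alternatives that refitted the values, with adjusted p between 0.00203 and 0.0282, and did not reach a rule of at least 2-fold.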

How the results depend on the processing

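Over all alternatives and comparisons, 894 values of single genes among the 10 kept their side of the threshold and their sign. Not all of these could have moved. Each of the 10 has 1 cluster, so averaging the clusters of a gene left their values as they were. The 2-fold rule reused the main fit, so it could only take calls away. Another 34, none of them called, changed sign, and 18 gained a call. A further 14 lost a call, some of them only by the 2-fold rule, and no called value reversed. With all 16 arrays in 1 fit, 2 of the 10 genes were called for light in the RPE (Slc6a9 and Tfap2a) and 0 in the NSR, where limma gave 0 at an unadjusted p under 0.05 too. The replicate number as a block called 3 in the RPE, adding Gad2 and Tfap2a (adjusted p = 0.0176 and 0.0374). These numbers do not pair light with control mice. Counting only changes of at least 2-fold left 0 of the 10 genes for light in the RPE, 0 in the NSR and 0 for the difference of responses. The same rule left 295, 269 and 433 of all genes, and 3041 and 3275 between the tissues in light-exposed and control mice. Leaving out each array in turn called 1 to 2 of the 10 in the RPE, 1 to 2 in the NSR and 1 to 2 for the difference, where Slc32a1 passed without RPE light 3 (-0.30, adjusted p = 0.0493). Leaving out RPE light 1 and 2 and RPE control 2, an alternative chosen with the data known for the tissue comparisons and the difference, gave 2056 called genes for light in the RPE. In each tissue comparison only those of these arrays that belonged to the compared groups were left out. Blocking on the mouse changed 1 call in the tissue comparisons, that of Onecut1 in light-exposed mice, and none for the difference of responses. Chat in light-exposed mice passed without NSR light 4 (-0.30, adjusted p = 0.0346), and Th in control mice without NSR control 4 (0.29, adjusted p = 0.00339). Without a background measure, the fold sizes of dim genes such as Calb1 and Calb2 in RPE are uncertain.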
